A study of Mus musculus with 8 samples.

Results

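Transcript levels of astrocyte genes were followed in mouse brain with and without Cav1, which encodes caveolin 1, a scaffold of caveolae. The 10 genes were chosen by symbol: Fabp7, Slc1a3, Gja1, Sparcl1, Aldh1l1, Slc1a2, Aqp4, S100b, Gfap and Gpr37l1. All 10 were found among the 34299 genes of the count table. There were 3 groups of brain libraries. Wild type (WT) at fetal day 15 had 3 libraries and Cav1 knockout (KO) at the same fetal age had 3. Cav1 KO at week 70 had 2. The sample titles do not say whether whole brains or dissected regions were taken. Strain, litter and the way the knockout was made are not given in the sources used here, and no allele other than the Cav1 knockout is named. The fetal libraries are described as biological replicates, whereas the labels do not say whether the week 70 libraries came from separate animals. Their Xist counts, given below, differed in a way that repeat libraries of 1 brain would not. WT brains of week 70 were not analysed here, so age was compared within the knockout and against fetal WT brain, where genotype differs as well.

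Astrocytes are the glial cells that clear glutamate and potassium from synapses, line blood vessels with their endfeet and support neurons metabolically. In the fetal forebrain their precursors are radial glia, the neural stem cells whose long processes guide migrating neurons and which turn to making astrocytes around birth. Radial glia already use several genes that later mark astrocytes, so 5 genes were treated as shared with radial glia: Fabp7, Slc1a3, Gja1, Sparcl1 and Aldh1l1. The other 5, Slc1a2, Aqp4, S100b, Gfap and Gpr37l1, were treated as mature astrocyte markers. Several of the 10 are not restricted to astrocytes in brain tissue. S100b is also found in oligodendrocytes, Gpr37l1 in oligodendrocyte precursors, Sparcl1 in endothelial cells and neurons, and Gja1 in meninges.

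Total counts ranged from 14110031 to 20833397 per library, and no KO library of day 15 was as deep as a WT library. A gene with 3 counts, the most that a count of 0 allows, would stand at 0.140 to 0.207 CPM, the depth-scaled read count used throughout, depending on the library. That limit and the counting interval below cover counting error only. Cav1 had 218 to 367 counts in the WT libraries and 0 to 5 in the KO libraries. Fetal libraries held the neuroblast gene Dcx at 1491 to 1843 CPM and the division gene Mki67 at 125 to 246 CPM, and at week 70 the neuronal kinase gene Camk2a stood at 4924 to 6043 CPM, so brain markers were present as labelled. WT replicate 1 stood apart: its 9 meningeal marker genes summed to 4545 CPM, against 327 and 539 CPM in the other WT libraries and 81.8 to 161 CPM in fetal KO. The choroid plexus and ependymal markers summed to 93.9 CPM in 1 week 70 library and 2432.5 CPM in the other. Xist, transcribed from the inactive X chromosome, had 54531 counts or more in each fetal library, 7969 in week 70 replicate 1 and 4 in replicate 2. In bulk samples such as these, fewer cells of a type and less RNA per cell cannot be told apart.

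Promoter sequences are shown for 3 genes as examples of both directions with age: Fabp7, the gene that was lower at week 70, and the mature markers Gfap and S100b, which were higher. They come from RefSeq on GRCm38.p6, where 8 of the 10 genes had an entry. Aqp4 and Sparcl1 had none. Each run is read 5′ to 3′ on the strand of the gene and covers the 250 bases before the RefSeq start site, cut short for Fabp7 where a GENCODE exon begins. Capitals mark matches to TTGGC, a binding half-site of the nuclear factor I family, and to TGGGAA, a core recognised by the Notch effector RBPJ, on either strand. No match overlapped a match to another motif searched.
Fabp7, chr10:57784673-57784880, plus strand: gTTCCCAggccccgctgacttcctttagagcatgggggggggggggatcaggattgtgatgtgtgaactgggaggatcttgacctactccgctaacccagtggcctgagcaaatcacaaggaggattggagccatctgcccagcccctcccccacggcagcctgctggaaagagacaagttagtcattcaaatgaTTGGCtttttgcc
Gfap, chr11:102897201-102897450, minus strand: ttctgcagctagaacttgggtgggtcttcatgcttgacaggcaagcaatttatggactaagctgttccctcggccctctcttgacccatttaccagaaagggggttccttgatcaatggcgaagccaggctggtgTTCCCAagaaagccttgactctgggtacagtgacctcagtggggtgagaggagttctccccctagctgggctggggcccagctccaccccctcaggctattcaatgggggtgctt
S100b, chr10:76253586-76253835, plus strand: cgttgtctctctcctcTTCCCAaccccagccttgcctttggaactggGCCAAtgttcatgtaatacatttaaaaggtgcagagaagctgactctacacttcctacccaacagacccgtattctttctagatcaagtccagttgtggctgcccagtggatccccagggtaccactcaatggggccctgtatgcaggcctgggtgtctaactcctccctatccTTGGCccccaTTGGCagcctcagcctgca
TTGGC was found in 3 of the 8 windows, those of Fabp7, S100b and Slc1a2, and in 41.5% of all 32851 promoter windows of 250 bases. In Fabp7 it begins 55 bases before the start site, and S100b holds 3 matches, at 203, 29 and 19 bases. TGGGAA was found in 4 of the 8, those of Fabp7, Aldh1l1, Gfap and S100b, against 21.6% of all windows, and it begins 249 bases before the start in Fabp7, 115 in Gfap and 234 in S100b. The palindrome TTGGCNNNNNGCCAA occurred in none of the 8 and in 0.0365% of all windows. Slc1a3 alone of the 8 held the STAT-type match TTCNNNGAA, present in 7.02% of all windows, and TATAAA, present in 12.4%. These matches describe letters in short windows on both strands and follow neither the grouping into shared and mature genes nor the direction of change with age.

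At day 15 the 5 shared genes and Slc1a2 stood above 10 CPM in every library, whereas Aqp4, S100b, Gfap and Gpr37l1 stayed under 5 CPM. Fabp7 encodes brain fatty acid-binding protein, the classic radial glial marker that carries long-chain fatty acids in the cytosol. It stood at 248, 290 and 307 CPM in the 3 WT libraries, at 823, 742 and 794 CPM in fetal KO, and at 20.6 and 26.6 CPM in week 70 KO. The 3 groups did not overlap, with KO highest at day 15 and week 70 lowest.

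Slc1a3 encodes the glutamate-aspartate transporter GLAST. Its levels were 132, 138 and 161 CPM in WT, 79.0, 69.1 and 66.8 CPM in fetal KO, and 955 and 874 CPM at week 70. Every fetal KO library was below every WT library, and both week 70 libraries were above all fetal ones. Gja1, for the gap junction protein connexin 43, gave 91.0, 57.0 and 64.8 CPM in WT and 23.9, 26.1 and 27.0 CPM in fetal KO, against 294 and 321 CPM at week 70. The same order of the 3 groups held, with WT replicate 1 highest among the fetal libraries.

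Sparcl1 encodes hevin, a secreted protein that promotes synapse formation. It stood at 116, 98.5 and 153 CPM in WT and at 84.7, 77.8 and 60.2 CPM in fetal KO, then at 3084 and 3120 CPM at week 70. The gap between the fetal groups was narrow and that to week 70 wide. Aldh1l1, a folate enzyme and a common pan-astrocyte marker, stood at 34.7, 36.9 and 42.7 CPM in WT, 13.95, 12.6 and 11.7 CPM in fetal KO, and 114 and 116 CPM at week 70. Again fetal KO was lowest, and week 70 was highest without overlap.

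Among the mature markers, Slc1a2 encodes GLT-1, the main glutamate transporter of the adult forebrain. It was the one mature marker with a sizeable fetal level, 181, 214 and 232 CPM in WT and 89.5, 104 and 104 CPM in fetal KO, and it reached 4831 and 4311 CPM at week 70. Its fetal groups were in the order seen for the shared genes other than Fabp7. Aqp4, the water channel of astrocyte endfeet, had 44, 47 and 57 counts in WT (2.06, 2.35 and 2.87 CPM), 63, 75 and 58 counts in fetal KO (3.82, 4.17 and 3.36 CPM), and 169 and 200 CPM at week 70. For Aqp4 each fetal KO library was above each WT library, although the KO libraries were shallower.

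Gfap, the intermediate filament of mature and reactive astrocytes, had 22, 15 and 19 counts in WT (1.03, 0.749 and 0.956 CPM) and 16, 20 and 30 counts in fetal KO (0.971, 1.11 and 1.74 CPM). At week 70 it reached 7394 and 8974 counts, or 488 and 619 CPM. The fetal groups overlapped. S100b encodes a calcium-binding protein, and its counts were 39, 11 and 19 for the WT libraries, 32, 25 and 15 for fetal KO, and 4933 and 3621 at week 70. In CPM these were 1.82, 0.550 and 0.956, then 1.94, 1.39 and 0.870, then 325 and 250. Its fetal groups overlapped as well, with WT replicate 1 above the other WT libraries.

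Gpr37l1, an orphan G protein-coupled receptor enriched in glia, was nearly silent in the fetus, with 6, 7 and 5 counts in WT and 3, 3 and 2 counts in fetal KO. It had 6194 and 5190 counts at week 70, equal to 409 and 358 CPM. These fetal counts lie around the 3 counts that an observed 0 allows.

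**Figure D1:**
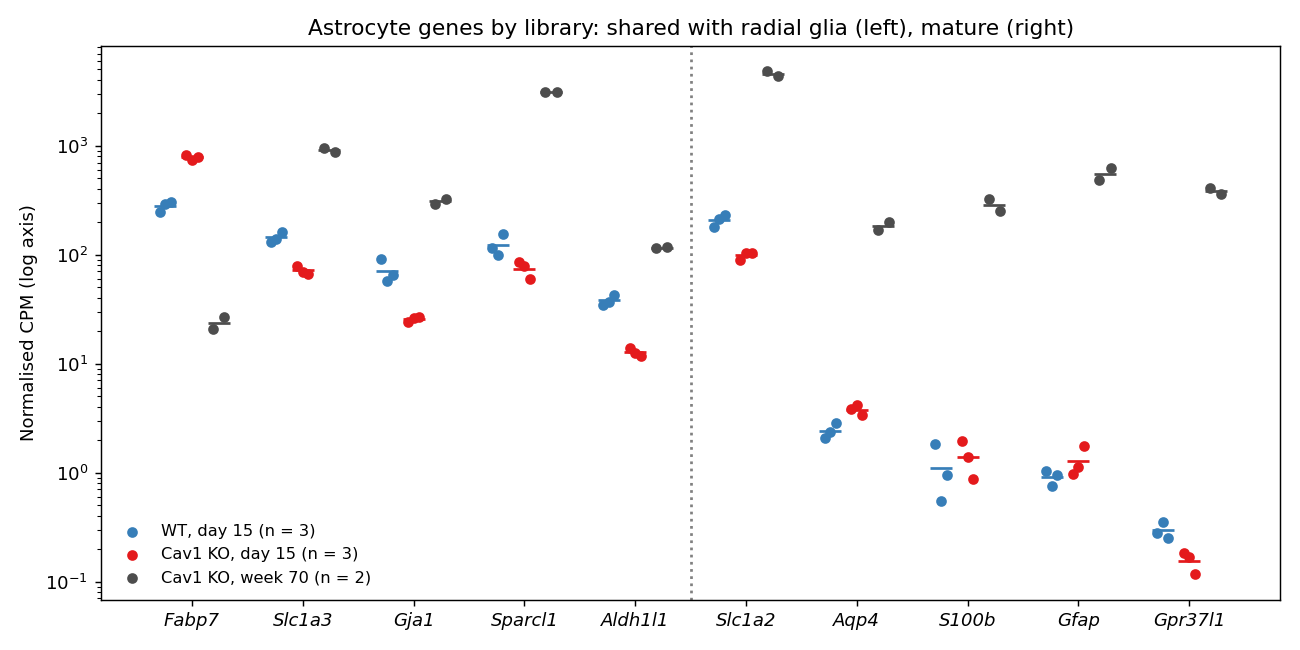
Normalised CPM (log axis) of the 10 genes, with 1 point per library and a bar at each group mean. Fabp7 ran from 742 to 823 CPM in fetal KO down to 20.6 and 26.6 CPM at week 70, while Gfap, Aqp4, S100b and Gpr37l1 stayed under 5 CPM in every fetal library.

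Levels were compared between genes only per kilobase of exon. Fabp7 was highest in both fetal groups, at a mean of 225 CPM per kb in WT and 629 in fetal KO. Sparcl1 came next in each, at 41.8 and 25.3 CPM per kb. Slc1a3 and Slc1a2 followed with overlapping libraries, as did Aldh1l1 and Gja1 after them, and the lowest 4 were S100b, Aqp4, Gfap and Gpr37l1 in both genotypes, where S100b and Aqp4 overlapped. At week 70 the order was Sparcl1 (1056 CPM per kb), Slc1a2 (348), S100b (194), Gpr37l1 (169), Gfap (131), Slc1a3 (107), Gja1 (30.0), Aqp4 (29.6), Aldh1l1 (25.5) and Fabp7 (18.9). S100b and Gpr37l1 overlapped there, as did Gja1 and Aqp4. Dividing by the longest transcript instead of all exons exchanged places among Slc1a2, Aldh1l1 and Gja1 at day 15 and moved Gfap and Slc1a3 above S100b and Gpr37l1 at week 70, but left the highest and the lowest gene of each group in place.

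Ratios between genes of the same library do not change with the scaling factor of the library, but any relation of the counts to length or GC content stays in them. Fabp7 stood at 12.8 to 14.3 times Slc1a3 per kb in WT, at 71.1 to 81.1 times in fetal KO and at 0.147 and 0.208 times at week 70. No 2 groups overlapped in this ratio. With the length and GC offset described below, the log2 fold change of KO over WT went from 1.52 to 0.51 for Fabp7 and from -0.97 to -0.89 for Slc1a3, so the genotype difference in the ratio is smaller there. Slc1a2 stood at 0.891 to 1.01 times Slc1a3 in WT and 0.736 to 1.02 times in fetal KO, so the 2 glutamate transporters kept overlapping ratios between genotypes, and at week 70 it stood at 3.29 and 3.21 times. The ratio of Gfap to Slc1a3 ran from 0.0110 to 0.0158 in WT and from 0.0249 to 0.0527 in fetal KO. At week 70 it was 1.03 and 1.43. Gfap itself had 15 to 30 counts per fetal library and overlapped between the genotypes, while Slc1a3 was lower in fetal KO.

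The summed level of the 5 shared genes was 270 to 333 CPM per kb in WT, 633 to 702 in fetal KO and 1232 and 1243 at week 70. Without Fabp7 the other 4 summed to 63.5 to 86.9, 33.5 to 43.5, and 1216 and 1222 in the same order. Fabp7 alone thus placed fetal KO above WT in the shared sum. The 5 mature genes summed to 15.7 to 19.1 CPM per kb in WT, 9.05 to 9.84 in fetal KO, and 910 and 833 at week 70. Slc1a2 alone gave 13.8 to 17.7 of this in WT and 6.81 to 7.95 in fetal KO. The lower mature sum of fetal KO thus followed Slc1a2. Of the other mature genes, Aqp4 was higher in fetal KO, Gfap and S100b overlapped between the genotypes, and Gpr37l1 was nearly silent. Fabp7 made up 69.4 to 74.2% of the level of all 10 genes in WT, 92.3 to 93.6% in fetal KO, and 0.769% and 1.03% at week 70.

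**Figure D2:**
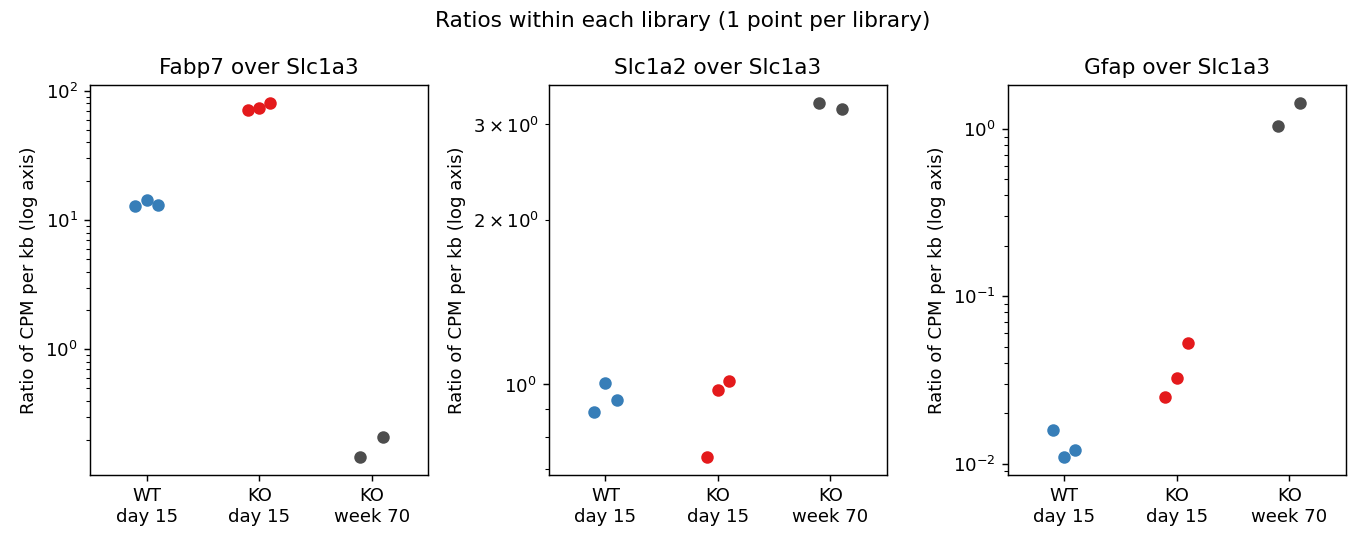
Ratio of CPM per kb between pairs of astrocyte genes in each library (log axes, 1 point per library). Fabp7 over Slc1a3 separated all 3 groups, and Slc1a2 over Slc1a3 overlapped between the fetal genotypes, at 0.736 to 1.02, and was above 3 at week 70.

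The first comparison asked which astrocyte genes differ between Cav1 KO and WT fetal brain. In KO, Fabp7 and Aqp4 were higher, and Slc1a3, Gja1, Sparcl1, Aldh1l1 and Slc1a2 were lower. Gfap and S100b did not pass the test, and Gpr37l1 had too few counts to be tested. Thus 7 of the 9 tested genes were called (edgeR, adjusted p below 0.05), where 62.6% of all 19147 tested genes were called, 30.1% higher (5768 genes) and 32.5% lower (6225 genes). With upper-quartile scaling in place of TMM the split over all genes was 7627 higher and 4915 lower, and no astrocyte gene changed its call. CPM did not overlap between genotypes for 8 of the 10 genes, among them Gpr37l1, which was not tested. Of the 9 tested genes the 7 called did not overlap, against 68.3% of all tested genes. The share called among astrocyte genes was therefore close to the background of this comparison. The median log2 fold change of the 9 genes was -0.69, and that of all tested genes was 0.03.

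Of the 5 shared genes, 1 rose and 4 fell. Fabp7 was 2.87-fold higher in KO, a log2 fold change of 1.52 (SE 0.0869, edgeR adjusted p 1.67e-07), and ranked 557th from the highest of the tested genes. Aldh1l1 fell by 1.54 on the log2 scale (SE 0.107, edgeR adjusted p 6.2e-07), or 2.91-fold. Gja1 fell by 1.42 (SE 0.147, edgeR adjusted p 1.14e-05). Slc1a3 fell by 0.97 and Sparcl1 by 0.69 on the same scale (edgeR adjusted p 4.47e-06 and 0.00291). Each of these 5 genes had KO and WT libraries that did not overlap.

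Of the 5 mature genes, 1 rose, 1 fell, 2 were not called and 1 was not tested. Slc1a2 stood 2.05-fold lower, at a log2 fold change of -1.04 (SE 0.101, edgeR adjusted p 7.5e-06). Aqp4 was 1.60-fold higher, with a log2 fold change of 0.68 (SE 0.206, edgeR adjusted p 0.0145) on 63, 75 and 58 counts against 44, 47 and 57. Leaving out KO replicate 2 gave Aqp4 a log2 fold change of 0.60 and an edgeR adjusted p of 0.0588. Without WT replicate 1 these were 0.56 and 0.0494, so its call lies close to the threshold. For Gfap the log2 fold change was 0.52 (SE 0.317, edgeR adjusted p 0.174) and for S100b 0.36 (SE 0.431, edgeR adjusted p 0.482). At 11 to 39 counts per library these errors leave room for differences of either direction in S100b. Gpr37l1 had 18 counts over the WT libraries and 8 over the fetal KO libraries, a KO to WT ratio of 0.527 with a 95% interval of 0.198 to 1.27 for counting error, which includes no difference.

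Fold changes between the genotypes were related to transcript length and base composition across the whole table, with Spearman's rho over 19050 genes of -0.37 for length and -0.48 for GC content. These are correlations across genes, which are not independent replicates. Any difference in how the KO and WT libraries were made cannot be told apart from genotype. Fabp7 has the shortest transcript of the 10 genes (880 bases, 42.6% GC), and Gfap and Gpr37l1 have the highest GC content (55.5% and 56.9%). With an offset that removes the smooth relation to both properties, Fabp7 kept its call at a smaller log2 fold change, 0.51 (edgeR adjusted p 0.000454), and Aldh1l1 stood at -0.95 (edgeR adjusted p 2.59e-05). Over all 19050 genes 4949 were called higher and 4783 lower with this offset. Slc1a3, Gja1, Sparcl1 and Slc1a2 remained lower at -0.89, -1.74, -0.69 and -0.74. The offset exchanged the calls of the endfoot channel and the filament gene: Aqp4 stood at 0.46 and was no longer called (edgeR adjusted p 0.0915), and Gfap stood at 0.94 and was called (edgeR adjusted p 0.0335). With the replicate block added to the offset neither was called (edgeR adjusted p 0.0562 for Gfap and 0.15 for Aqp4).

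**Figure D3:**
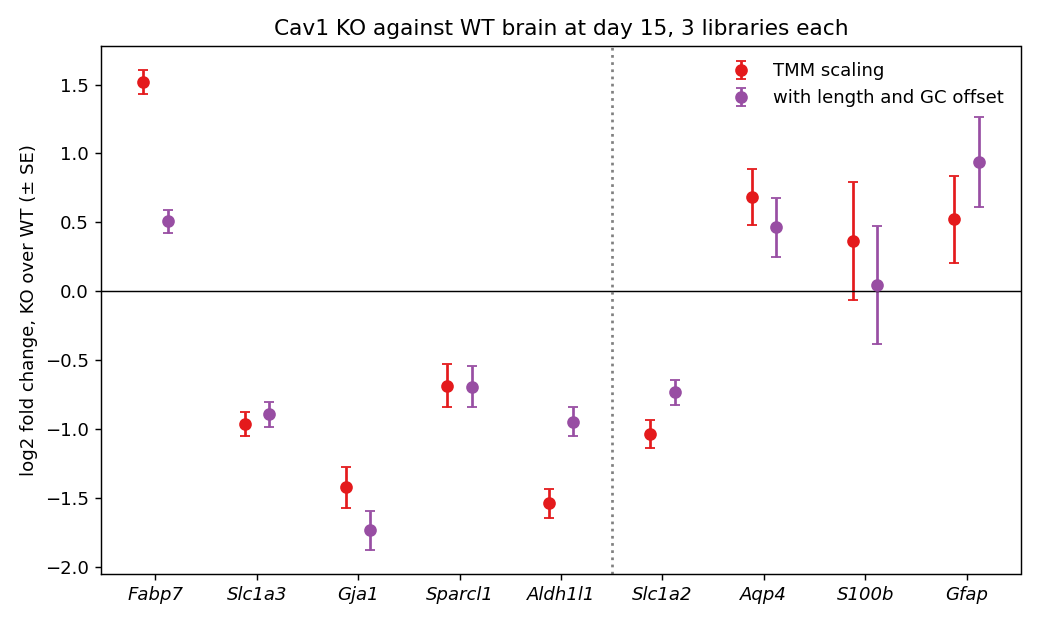
log2 fold change of KO over WT at day 15 (± SE, 3 libraries each) for the 9 tested genes, with TMM scaling and with the length and GC offset. Fabp7 moved from 1.52 to 0.51 with the offset, and Slc1a3, Gja1, Sparcl1, Aldh1l1 and Slc1a2 stayed below 0 under both.

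Markers of other cell types moved between the same libraries, where 32.5% of all tested genes were called lower. Endothelial markers summed to 190 to 258 CPM in WT and 64.5 to 78.0 CPM in fetal KO, and 7 of the 8 tested were called lower. The 6 markers of oligodendrocyte precursors were all called lower, or 4 of 6 with the length and GC offset, at 101 to 136 CPM in WT and 39.7 to 53.3 CPM in fetal KO. Meningeal markers, of which 6 of 9 were called lower, were highest in WT replicate 1, where Gja1 and S100b also had their highest WT values. Without that library Gja1 stood at -1.23 (edgeR adjusted p 3.32e-07) and S100b at 0.90 (edgeR adjusted p 0.0911) on the log2 scale. Hindbrain and spinal markers summed to 48.9, 55.1 and 173 CPM in WT and 16.1 to 36.5 CPM in fetal KO. No gene of these lists was at 0 in all libraries of either fetal group, and the part of these cell types in the astrocyte gene differences was not tested.

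Other genes of the astrocyte lineage were taken from lists rather than picked by their change. Among 20 further radial glial genes, 3 were called higher in fetal KO, 16 lower, and Id1 was not called (log2 fold change 0.08, edgeR adjusted p 0.644). Of all tested genes 30.1% were called higher and 32.5% lower. The median log2 fold change of the radial glial list was -0.64. With the length and GC offset 1 was higher, 13 were lower and the median was -0.60. Its 3 most abundant genes were Vim, the intermediate filament vimentin, with a log2 fold change of -1.41 (edgeR adjusted p 7.62e-08), the receptor phosphatase gene Ptprz1 at -0.39 (0.000462) and its ligand gene Ptn, pleiotrophin, which was higher at 0.34 (edgeR adjusted p 0.00164). Vim went from 447 to 534 CPM in WT to 172 to 181 CPM in fetal KO. With the offset Ptn stood at 0.00 and Ptprz1 at -0.13, and Vim at -1.52. Most of this list thus moved in the direction of Slc1a3, Gja1, Sparcl1 and Aldh1l1.

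Transcription factors and receptors that direct glial fate were lower for 12 of 17 genes and higher for 2. Over all tested genes those shares were 32.5% and 30.1%. Zbtb20, Id3 and Bmpr1a were not called (log2 fold changes 0.23, -0.28 and 0.15, edgeR adjusted p 0.0694, 0.084 and 0.0872). Nfib and Nfix, nuclear factor I genes needed for astrocyte differentiation, were lower by log2 fold changes of -0.58 and -2.12 (edgeR adjusted p 8.52e-05 and 1.39e-08). Nfix went from 532 to 576.5 CPM in WT to 121 to 129 CPM in fetal KO, and with the length and GC offset it stood at -1.21. The list shares Hes1 and Hes5 with the radial glial list.

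A wider mature astrocyte list had 33 tested genes, of which 18 were lower in fetal KO, 7 higher and 8 not called, and its median log2 fold change was -0.64. Over all tested genes 32.5% were lower and 30.1% higher. With the length and GC offset 16 of the list were lower and 6 higher, with a median of -0.34. Glul, for glutamine synthetase, went from 153 to 171 CPM in WT to 62.0 to 73.2 CPM in fetal KO (log2 fold change -1.20, edgeR adjusted p 3.09e-07). Apoe, the main lipid carrier of the brain, was lower by a log2 fold change of -0.85 (edgeR adjusted p 0.000304). Cst3, the protease inhibitor cystatin C, was higher by 0.65 (edgeR adjusted p 5.1e-05), at 111 to 138 CPM against 76.3 to 87.1 CPM. Of 13 genes tied to the perivascular endfoot, where Aqp4 is anchored, 7 were lower and 1 was higher. With the length and GC offset 4 were lower and 1 higher, where 4783 of all 19050 tested genes were lower and 4949 higher. Dag1, for dystroglycan, stood at -2.40 (edgeR adjusted p 1.41e-08; -1.70 with the offset) and the potassium channel gene Kcnj10 at -1.35 (edgeR adjusted p 9.07e-06), while Dtna, for dystrobrevin alpha, was higher by 0.32 (edgeR adjusted p 0.0087). Dag1 and Kcnj10 therefore moved opposite to Aqp4, and Dtna moved with it. Kcnj10, Mlc1 and Hepacam stand on both lists, and Mfge8 on the mature and the radial glial list.

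Age was compared within the knockout. At week 70, 9 of the 10 astrocyte genes were higher than in fetal KO and Fabp7 was lower, with no overlap for any of them. Here 82% of the 20000 tested genes were called in edgeR, 37.6% higher and 44.4% lower, and 87.9% did not overlap. The median log2 fold change was 7.58 for the 5 mature genes and 3.48 for the 5 shared genes, against -0.19 for all tested genes. Any difference in how libraries of the 2 ages were made cannot be told apart from age.

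Gpr37l1, Gfap and S100b, all mature markers, rose most among the astrocyte genes. Gpr37l1 had 8 counts over the fetal KO libraries and 11384 over those of week 70, a ratio of 2480 with a 95% interval of 1258 to 5747 for counting error. Its fitted log2 fold change ranked 3rd from the highest. Gfap was 402-fold higher (log2 fold change 8.65, SE 0.188, edgeR adjusted p 1e-10) and ranked 22nd from the highest. S100b followed at 7.58 (SE 0.202, edgeR adjusted p 2.52e-10). Aqp4 was 45.3-fold and Slc1a2 43.0-fold higher, with log2 fold changes of 5.50 and 5.43 (edgeR adjusted p 1.18e-10 and 1.21e-10). Slc1a2 already stood at a mean of 99.2 CPM in fetal KO. Its fold and that of Aqp4 were within their errors of each other, and their order turned with the replicate block and without KO day 15 replicate 3 or week 70 replicate 2.

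The 4 shared genes other than Fabp7 also rose. Sparcl1 was 39.0-fold higher (log2 fold change 5.29, SE 0.146, edgeR adjusted p 3.18e-10). That was close to the mature gene Slc1a2, and without KO day 15 replicate 1 Sparcl1 stood above Slc1a2, at 5.39 against 5.36. Slc1a3 was 11.9-fold, Gja1 11.2-fold and Aldh1l1 8.44-fold higher, with log2 fold changes of 3.58, 3.48 and 3.08 (edgeR adjusted p 3.8e-10, 3.02e-10 and 7.37e-10). Fabp7 fell by 5.16 on the log2 scale (SE 0.145, edgeR adjusted p 3.5e-10), or 35.7-fold. With the length and GC offset its fall was smaller, at -3.23 (edgeR adjusted p 1.07e-08). Aldh1l1 stood at 2.38 with the offset, and the directions and calls of all 10 genes were the same.

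Week 70 KO was also set against fetal WT, where genotype and age both differ. The 2 age comparisons share the week 70 libraries, so their values are given side by side only. The same 9 genes were called higher and Fabp7 lower, where edgeR called 78.6% of 19465 tested genes, 36.7% higher and 41.9% lower. CPM overlapped for none of the 10, and for 86.4% of all tested genes the groups did not overlap either. Aldh1l1 stood at 1.58 (SE 0.0951, edgeR adjusted p 3.93e-06) over fetal WT and at 3.08 over fetal KO, and Gja1 at 2.10 (SE 0.18, edgeR adjusted p 2.64e-05) and 3.48. Fabp7 stood at -3.59 (SE 0.15, edgeR adjusted p 6.94e-07) over fetal WT and at -5.16 over fetal KO. For the mature genes the log2 fold changes over fetal WT were 10.30 for Gpr37l1, 9.22 for Gfap, 7.98 for S100b, 6.23 for Aqp4 and 4.44 for Slc1a2, and the medians were 7.98 for mature and 2.10 for shared genes, with -0.16 for all tested genes. The shared gene Sparcl1 stood at 4.65 (SE 0.183, edgeR adjusted p 5.31e-07) over fetal WT, above Slc1a2. With the length and GC offset Fabp7 stood at -2.74, Slc1a2 at 5.23 and Sparcl1 at 4.605 over fetal WT.

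**Figure D4:**
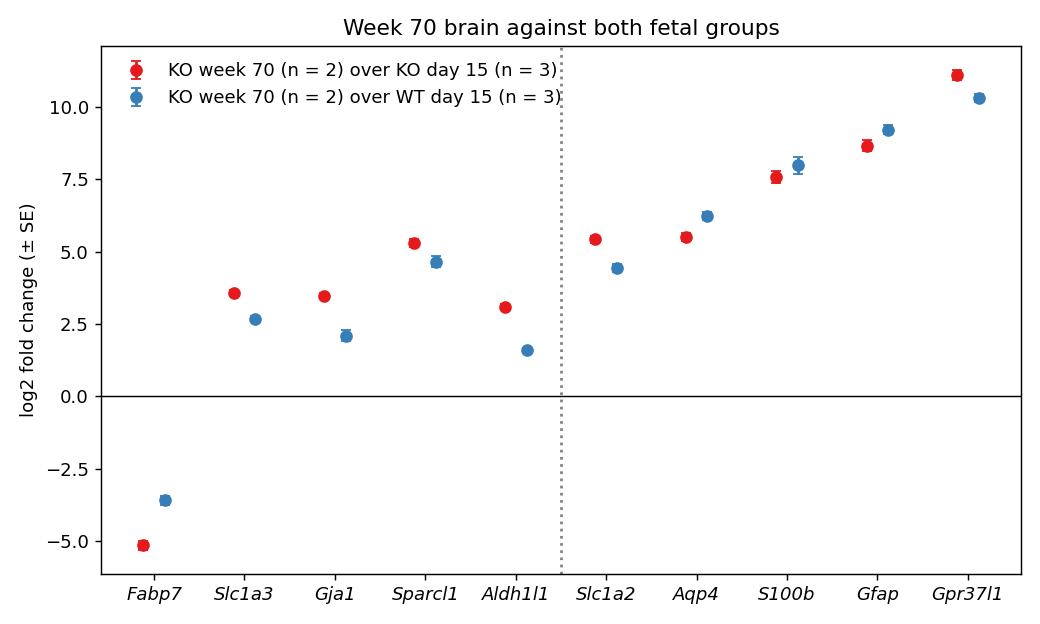
log2 fold change (± SE) of week 70 KO (2 libraries) over fetal KO and over fetal WT (3 libraries each). The 5 mature genes lie between 4.44 and 11.11, the shared genes other than Fabp7 between 1.58 and 5.29, and Fabp7 lies below 0 against both references.

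Other brain cells changed with age in the same libraries. Over all tested genes 37.6% were called higher and 44.4% lower than in fetal KO. The 9 oligodendrocyte markers were all called higher over fetal KO, from 84.5 to 90.5 CPM in sum to 13970 and 14126 CPM, and all 6 precursor markers were higher too, from 39.7 to 53.3 CPM to 539 and 554 CPM. Endothelial markers summed to 412 and 470 CPM at week 70, with all 9 called higher. The dividing cell markers fell from 423 to 453 CPM to 3.04 and 5.61 CPM, and all 8 were called lower. S100b, Gpr37l1 and Sparcl1 are also made by some of these cells, and the part of those cells in the age differences was not tested. Hindbrain and spinal markers summed to 16.1 to 36.5 CPM in fetal KO and to 2.31 and 5.04 CPM at week 70. All 5 that could be tested were called lower, and the part of brain region in the age differences was not tested.

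In the wider mature astrocyte list, 32 of 34 tested genes were called higher at week 70 than in fetal KO and 1 lower. Over all tested genes 37.6% were higher and 44.4% lower. Aqp9 was not called (log2 fold change 0.83, edgeR adjusted p 0.0747). Glul, Apoe and Cst3 stood at log2 fold changes of 5.43, 6.02 and 3.93 (edgeR adjusted p 8.82e-11, 2.2e-10 and 8.67e-10). All 13 endfoot genes were higher, with Kcnj10 at 5.83 (edgeR adjusted p 7.69e-11), so Aqp4 rose together with the other endfoot genes. Over fetal WT the counts were 34 of 35 and 12 of 13, where 36.7% of all tested genes were higher.

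The radial glial list was divided. Over fetal KO 7 of its 20 genes were higher, 9 lower and 4 (Hes1, Ptn, Dbi and Pdpn, the latter pair named after their values were seen) not called, with a median of -0.16, and over fetal WT 6 were higher, 11 lower and 3 (Hes1, Ptn and Ednrb) not called, with a median of -0.68. Vim fell by 1.23 on the log2 scale (edgeR adjusted p 4.12e-07) and Ptprz1 by 0.44 (edgeR adjusted p 0.00112), while Ptn stood at -0.12 (edgeR adjusted p 0.384). Fabp7 fell as did 9 of the 20 genes, whereas Slc1a3, Gja1, Sparcl1 and Aldh1l1 rose as did 7. Of all tested genes 44.4% were lower and 37.6% higher over fetal KO, so the split of this list was near that of the whole table. Among the glial fate genes 11 of 17 were higher and 4 lower over fetal KO, and Hes1 and Bmpr1a were not called. Nfix rose by a log2 fold change of 1.76 (edgeR adjusted p 3.78e-08), and Nfib and Zbtb20 were lower at -2.25 and -1.85 (edgeR adjusted p 1.67e-08 and 1.25e-07). With the length and GC offset these were 0.78 for Nfix, -1.70 for Nfib and -0.28 for Zbtb20. Over fetal WT Nfix was lower instead, at -0.31 (edgeR adjusted p 0.0172), and its level of 415 and 495 CPM at week 70 lay between the 2 fetal groups.

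Genes of reactive astrocytes, induced by injury, inflammation or age, were mostly scarce in the fetal libraries. Between the fetal genotypes 18 of 28 could be tested, of which 5 were lower, 2 higher and 11 not called. Of all tested genes 32.5% were lower and 30.1% higher, so the share lower in this list was near that background. At week 70, 13 of 24 tested genes were higher than in fetal KO, 6 lower and 5 not called, with a median log2 fold change of 1.15. H2-D1, a class I histocompatibility gene, rose by 2.82 (edgeR adjusted p 9.98e-10), from 11.9 to 13.2 CPM to 93.6 and 94.99 CPM. S100a10 fell by 0.56 (edgeR adjusted p 0.000863), a direction that the length and GC offset reversed to 0.96, and it was higher in fetal KO than in WT by 1.66 (edgeR adjusted p 0.000273). C4b, a complement gene, and Serpina3n, a protease inhibitor gene, were chosen after their values were seen. They were under 1 CPM in every fetal library and at 55.0 to 75.5 and 21.6 to 33.4 CPM at week 70. Besides S100a10 and Vim, the genes of this list called lower over fetal KO were Ptx3, Timp1, Tgm1 and Emp1. Their log2 fold changes were -4.42, -2.71, -1.92 and -1.89. Vim, which counts both as a radial glial and as a reactive gene, was lower at week 70, so the 2 intermediate filament genes Gfap and Vim moved in opposite directions with age.

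**Figure D5:**
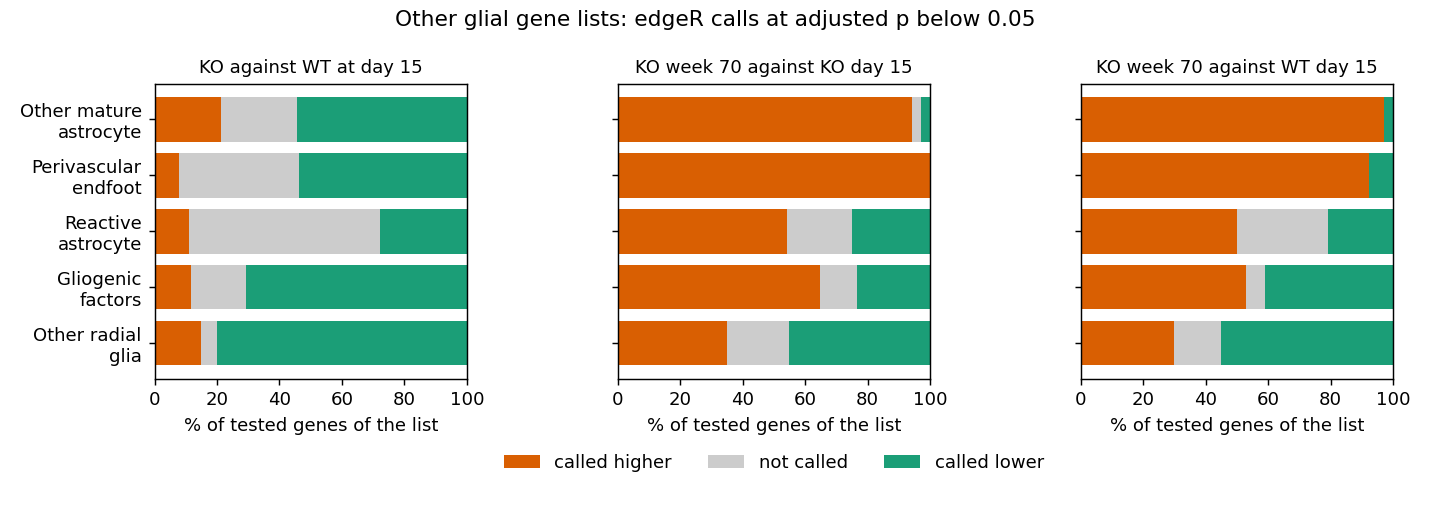
Share of tested genes called higher, lower or not called by edgeR in 5 glial gene lists, for each of the 3 comparisons (% of tested genes of the list). Between the fetal genotypes 16 of 20 radial glial genes and 12 of 17 gliogenic factors were lower, against 32.5% of all tested genes. At week 70 nearly all mature astrocyte and endfoot genes were higher. Over all tested genes 37.6% were higher than in fetal KO and 36.7% higher than in fetal WT.

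The genes whose profile over the 8 libraries came closest to Gfap and to Fabp7 were sought among 12823 named genes, by the root mean square difference of centred log2 values. For Gfap they were Plekhb1 (0.384), Fam107a (0.392), which is on the mature astrocyte list, and Itpka (0.406). Of the other 9 astrocyte genes Gpr37l1 was nearest, at 0.450. Its fetal levels of 0.116 to 0.350 CPM lie below the pseudocount of 0.5, so this distance understates its rise. Itpka, at fetal means of 0.782 CPM in WT and 0.521 CPM in KO, lies near the pseudocount as well. For Fabp7 the nearest were Akr1c19 (0.275), Hfm1 (0.316) and Rmst (0.341). Chosen for this likeness, all were higher in fetal KO than in WT and nearly absent at week 70. Akr1c19 stood at 0 CPM in both week 70 libraries, so the size of its fall there is set by the pseudocount. Rmst, a long noncoding RNA, averaged 27.9 CPM in WT and 54.2 CPM in fetal KO and stood at 1.52 CPM in both week 70 libraries. Aldh1l1 was the nearest to Fabp7 of the 9 astrocyte genes, at a difference of 3.17, far above the 0.341 of Rmst.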

How the data were processed

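RNA-seq of polyadenylated RNA was available for 8 libraries, grouped by the sample titles. The authors deposited raw read counts per Ensembl gene. HISAT2 and featureCounts are named in the submitters' processing notes, as are the builds GRCm38 and GRCm39. Which build and annotation the counts use, and whether strand was used, is not given in the sources used here, so antisense overlap (13.4% of Aldh1l1 and 1.44% of Slc1a2 exon bases, the former partly with a gene on the same strand) could not be separated. No other transcript matched 1 of the 10 genes at 85% identity over 50% of its length.

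Each pair of groups was fitted alone with edgeR 4.0.16 in R 4.3.3 (filterByExpr, TMM, quasi-likelihood F-test, two-sided, Benjamini-Hochberg over all tested genes, threshold 0.05). Standard errors follow from the F statistic. CPM per library used TMM over all 8 libraries, and levels per kb used the summed exon length of GENCODE M21, which matched 33365 identifiers (97.3%). The length and GC offset was a smooth fit (mgcv 1.9.3) of library deviations from the gene means on transcript length and GC content. Alternatives were upper-quartile and RLE scaling, DESeq2 1.42.0, no low-count filter or a mean of at least 10 counts, one fit over all 8 libraries, the replicate number as a block, the offset with and without the block, and each library left out. The genes and lists were chosen with earlier results of these data known. All 10 genes were named, and from each other list the 3 most abundant and any 3 or fewer not called. The 3 nearest profiles to Gfap and Fabp7 (pseudocount 0.5, mean of at least 50 counts) were also named. The scripts were tested on simulated data. Depth limits Gfap, S100b, Aqp4 and Gpr37l1 at day 15.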

Additional observations from a re-analysis of the deposited data

How the results depend on the processing

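The counts of astrocyte genes called at week 70 (9 higher, 1 lower over either fetal group) and the 5 called lower at day 15 were the same under every alternative run. With the offset alone Gfap took the place of Aqp4 among the 2 called higher. That number became 1 with no filter on low counts and 1 with the replicate block joined to the length and GC offset. When each library was left out it ranged from 1 to 2, and it was 1 only without KO replicate 2. Aqp4 was the gene lost with no filter (edgeR adjusted p 0.0525) and without KO replicate 2 (0.0588). With block and offset neither Aqp4 (edgeR adjusted p 0.15) nor Gfap (0.0562) was called. The cause was not tested. Counting only Fabp7 and Slc1a3 as shared with radial glia moved the mean log2 ratio of shared to mature levels from 4.10 to 1.71 in WT and from 6.14 to 3.995 in fetal KO, and reversed it at week 70 from 0.51 to -3.98, since Sparcl1 then counts as mature. Upper-quartile scaling raised the share of all day 15 calls that were higher from 48.1% to 60.8% and the median of all genes from 0.03 to 0.20 (and lowered it from -0.19 to -0.44 and from -0.16 to -0.29 in the age comparisons over fetal KO and fetal WT), and changed no call among the astrocyte genes. The replicate numbers did not pair the fetal libraries: same-numbered libraries had correlations of deviations of -0.144, -0.169 and -0.146. With the replicate block alone edgeR called 11184 genes at day 15, against 11993 without it, 14876 and 13244 in the age comparisons, and it changed no call among the astrocyte genes. Counts of 11 to 75 per library limit what can be said of Gfap, S100b and Aqp4 between the fetal genotypes.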
